A study of Peromyscus maniculatus and Peromyscus polionotus and Peromyscus maniculatus x Peromyscus polionotus with 18 samples.

Results

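The genes described here make, store, recapture and break down the catecholamines dopamine and noradrenaline. They were chosen by name, 8 in all: Th, Ddc, Dbh, Slc6a2, Slc6a3, Slc18a2, Maoa and Maob. Of these, 5 had a row of their name in the table of 20731 named genes from the parental species (Dbh, Slc18a2, Slc6a3, Slc6a2 and Maob), and 3 of the 5 (Dbh, Slc18a2 and Slc6a3) also had one in the table of 11928 genes from the hybrids. Th, Ddc and Maoa were not analysed here. The series measured whole-brain RNA of male deer mice, 50 to 80 days old, in 6 groups of 3 libraries each: *Peromyscus polionotus*, *P. maniculatus* and F1 hybrids between them. The hybrids all carry the same cross label, *P. maniculatus* x *P. polionotus*. Brains were taken directly after a test trial, either burrowing in large enclosures filled with sand or control. What the control trial consisted of is not stated in the sources used here. Every animal, controls included, had already been in the enclosures for acclimation, and the test trial was assigned at random. Burrows of *P. polionotus* are long and have an escape tunnel, those of *P. maniculatus* are short, and the comparisons ask how brain expression differs with species, with trial and between the parental alleles of a hybrid. The labels do not say that each library is 1 animal, so p-values measure the spread between these libraries. Hybrid libraries are called animals below.

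Catecholamines are built from tyrosine. Tyrosine hydroxylase and aromatic amino acid decarboxylase make dopamine, and in noradrenergic neurons of the hindbrain dopamine β-hydroxylase (Dbh) turns it into noradrenaline inside vesicles. The vesicular monoamine transporter VMAT2 (Slc18a2) fills the vesicles of dopamine, noradrenaline, serotonin and histamine neurons alike. The dopamine transporter (Slc6a3) and the noradrenaline transporter (Slc6a2) take the released amine back into the neuron, and the mitochondrial monoamine oxidases degrade it. In laboratory mice the dopamine and noradrenaline neurons that express the transporters sit in small nuclei of the midbrain and hindbrain, whereas Maob is known from astrocytes and serotonin neurons.

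Parental values are TPM, a unit scaled by transcript length in which genes can be compared. Slc18a2 had the highest mean over the 12 parental libraries, 16.2 TPM, followed by Slc6a3 at 4.19, Dbh at 2.44, Maob at 1.21 and Slc6a2 at 0.247 TPM. The order of the means was the same in both species. In *P. polionotus* the ranges of neighbouring genes in this order were separate, and in *P. maniculatus* the lowest Slc6a3 value (2.92 TPM) lay just above the highest Dbh value (2.9 TPM). Differences between groups were tested with limma on log2(TPM + 1) for the 14366 genes averaging 1 TPM or more, and a gene was called below a Benjamini-Hochberg adjusted p of 0.05. Of the 5 genes 4 were tested. Slc6a2 lay below the filter, and Maob passed it through *P. polionotus*, since its mean in *P. maniculatus* was 0.881 TPM.

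**Figure D1:**
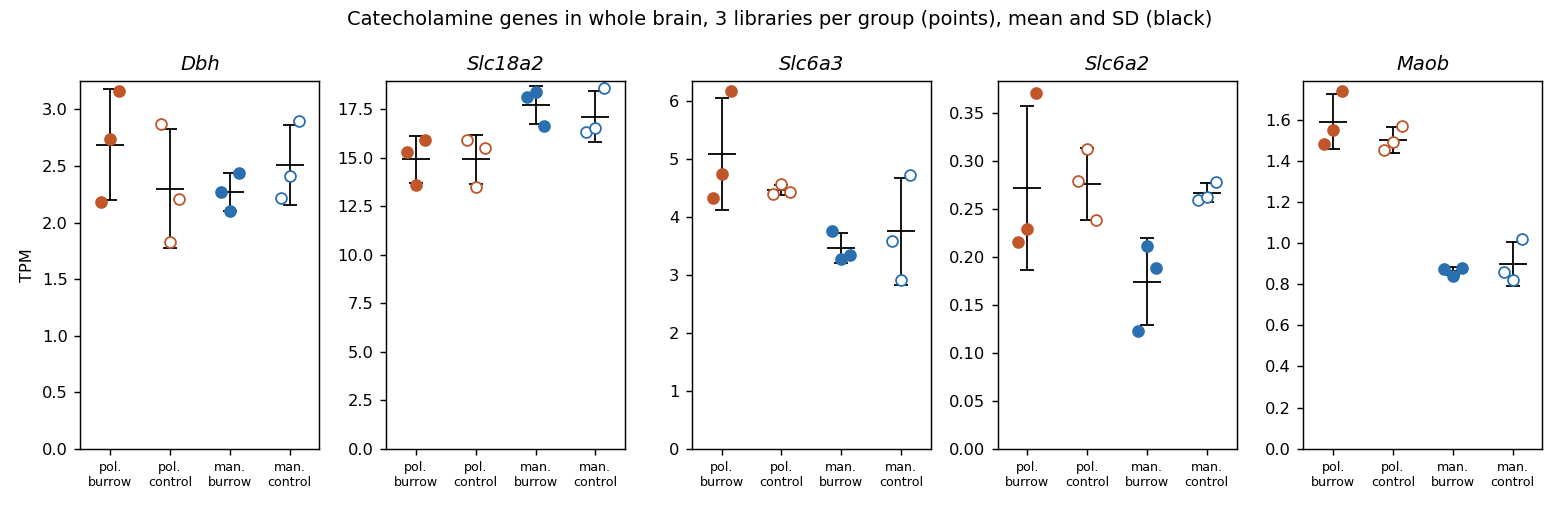
TPM (vertical axes, from 0) of the 5 catecholamine genes in 4 groups of 3 parental libraries, P. polionotus in orange and P. maniculatus in blue, filled for burrowing and open for control animals, with mean and SD in black. Maob and Slc18a2 separate the species with no overlap, Maob at 1.45 TPM or more in every P. polionotus library and Slc18a2 at most 15.9 TPM there.

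Between species, Maob and Slc6a3 were higher and Slc18a2 was lower in *P. polionotus*, while Dbh was not called. In the mean of both trials, 2 of the 3 tested genes that averaged over 1 TPM in both species were called, Slc6a3 and Slc18a2, beside a background of 52.4% of all tested genes, 32.6% higher and 19.8% lower. A share of this size among so few genes is near the background. Maob, which entered the test through the species where it was higher, is left out of that count. Scaling moved the balance of all genes: 4688 were higher and 2841 lower as deposited, against 3826 and 3857 with quantile normalization and 3736 and 3959 with median scaling. Maob, Slc6a3 and Slc18a2 were called in the same direction with both scalings. The ranges of the 2 species, 6 libraries each, did not overlap for Slc18a2, 1 of the same 3 genes, and for Maob, beside 32.8% of all tested genes.

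For synthesis, Dbh stood at 2.18, 2.74 and 3.16 TPM in burrowing and 2.87, 1.83 and 2.21 TPM in control *P. polionotus*. In *P. maniculatus* it stood at 2.27, 2.1 and 2.44 TPM after burrowing and 2.22, 2.41 and 2.9 TPM in controls. The ranges of the species overlapped, and the spread was wider in *P. polionotus*, whose lowest library was control replicate 2. The species difference on the log2(TPM + 1) scale was 0.04 (SE 0.09, limma adjusted p = 0.759).

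The vesicular transporter Slc18a2 ranged in *P. polionotus* over 15.3, 13.6 and 15.9 TPM after burrowing and 15.9, 13.5 and 15.5 TPM in controls. *P. maniculatus* had 18.1, 18.4 and 16.6 TPM after burrowing and 16.3, 16.5 and 18.6 TPM in controls. Every *P. polionotus* library was below every *P. maniculatus* library. In *P. polionotus* the mean was 14.9 ± 1.1 TPM, against 17.4 ± 1.08 TPM in *P. maniculatus* (SD, n = 6 each), a ratio of 0.858, and the log2 difference was -0.21 (SE 0.06, limma adjusted p = 0.0125). Within 1 trial the difference kept its size without passing, at -0.23 after burrowing (SE 0.08, limma adjusted p = 0.055) and -0.19 in controls (SE 0.08, limma adjusted p = 0.102). It passed in both with quantile normalization (limma adjusted p = 0.0222 after burrowing and 0.021 in controls) and with median scaling (0.0261 and 0.0185). After burrowing it also passed without maniculatus control replicate 3 (limma adjusted p = 0.0459) or polionotus control replicate 2 (0.0344). The same held without the 3 libraries that scored highest on the second component described below (0.0161).

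The dopamine transporter Slc6a3 went the other way. It stood at 4.33, 4.75 and 6.18 TPM in burrowing and 4.4, 4.57 and 4.44 TPM in control *P. polionotus*. In *P. maniculatus* the values were 3.76, 3.28 and 3.35 TPM after burrowing and 3.59, 2.92 and 4.73 TPM in controls. Only maniculatus control replicate 3 reached into the *P. polionotus* range. The mean was 4.78 ± 0.701 TPM for *P. polionotus*, against 3.6 ± 0.623 TPM for *P. maniculatus* (SD, n = 6 each), a ratio of 1.33, with a log2 difference of 0.33 (SE 0.1, limma adjusted p = 0.0148). After burrowing the difference was 0.44 (SE 0.14, limma adjusted p = 0.0304), where 34.1% of all tested genes were called, and it lost its call without polionotus burrowing replicate 2 or 3 or maniculatus burrowing replicate 2 or 3 (adjusted p = 0.0546, 0.11, 0.0834 and 0.0796). With polionotus control replicates 2 and 3 both left out, the call was lost too (adjusted p = 0.0525). In controls it was 0.22 (SE 0.14, limma adjusted p = 0.223), and it passed there without maniculatus control replicate 3 (0.37, adjusted p = 0.0422).

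Because Slc6a3 and Slc18a2 moved in opposite directions, their ratio within a library, which no scaling of the library changes, set the species apart. Slc6a3 was 0.282, 0.349 and 0.389 times Slc18a2 in burrowing and 0.278, 0.338 and 0.287 times in control *P. polionotus*. The ratio was 0.208, 0.178 and 0.202 in burrowing and 0.221, 0.177 and 0.254 in control *P. maniculatus*. The species did not overlap, with means of 0.321 ± 0.0452 in *P. polionotus* and 0.206 ± 0.0288 in *P. maniculatus* (SD, n = 6 each). This ratio was chosen after the values were seen and was not tested.

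The noradrenaline transporter Slc6a2 was low throughout, at 0.216, 0.229 and 0.371 TPM in burrowing and 0.279, 0.313 and 0.238 TPM in control *P. polionotus*, against 0.123, 0.211 and 0.188 TPM in burrowing and 0.259, 0.263 and 0.278 TPM in control *P. maniculatus*. The burrowing *P. maniculatus* libraries were the lowest of the 4 groups, at 0.211 TPM or less, against 0.216 TPM or more in the others. This narrow separation was not counted over all genes. When all genes were tested without the filter, its species difference was 0.06 (SE 0.04, limma adjusted p = 0.174) in the mean of both trials and 0.11 (SE 0.05, limma adjusted p = 0.113) after burrowing, on a log2(TPM + 1) scale that compresses values this low. The ratio of means after burrowing was 1.56.

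In the breakdown pathway, Maob, which encodes the enzyme monoamine oxidase B, stood at 1.48, 1.55 and 1.74 TPM in burrowing and 1.45, 1.49 and 1.57 TPM in control *P. polionotus*. In *P. maniculatus* it was at 0.872, 0.841 and 0.879 TPM after burrowing and 0.857, 0.82 and 1.02 TPM in controls. Every *P. polionotus* library exceeded every *P. maniculatus* library. It averaged 1.55 ± 0.107 TPM in *P. polionotus*, against 0.881 ± 0.0699 TPM in *P. maniculatus* (SD, n = 6 each), a ratio of 1.76, and the log2(TPM + 1) difference was 0.44 (SE 0.05, limma adjusted p = 3.89e-05). Since the filter could favour a gene high in 1 species only, the fit of all genes without a filter applies here, and it gave 0.44 as well (SE 0.04, limma adjusted p = 1.31e-05). It was called after burrowing (0.47, SE 0.07, limma adjusted p = 0.000563) and in controls (0.4, SE 0.07, limma adjusted p = 0.00145), and in each of the alternative settings. Of the other 3 tested genes, 1 was higher and 0 lower after burrowing, where 34.1% of all genes were called, 14.1% lower and the rest higher. In controls 0 of the 3 were called, where 39.6% of all genes were called, 26.8% higher and 12.9% lower. With quantile normalization the genes called in controls were 2827 higher and 2852 lower, against 3843 and 1853 as deposited. The 9 astrocyte markers summed to 1750 to 1970 TPM in *P. polionotus*, against 1940 to 2410 TPM in *P. maniculatus*. In the mean of both trials 3 of the 9 were lower in *P. polionotus* (Gja1, S100b and Aqp4) and 0 higher. Of all tested genes 19.8% were lower and 32.6% higher. The median of the astrocyte list was -0.02, beside 0.06 over all tested genes. The part of astrocyte markers in the Maob difference was not tested.

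**Figure D2:**
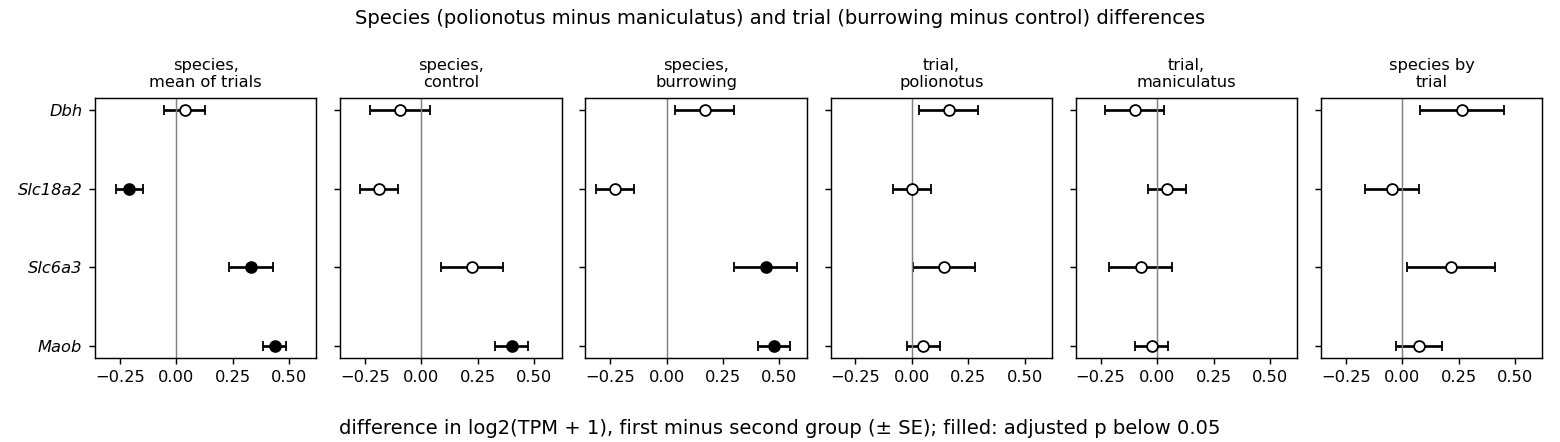
Differences in log2(TPM + 1) with SE (horizontal axes) for the 4 tested genes (rows) in 6 comparisons of parental libraries, filled where the adjusted p was below 0.05. The species panels show Maob and Slc6a3 right of 0 and Slc18a2 left of it, and no gene is filled in the trial or species by trial panels.

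The trial comparisons set burrowing against control animals of 1 species. None of the 4 tested catecholamine genes passed in either species. In *P. polionotus*, burrowing against control, the log2 differences were 0.16 for Dbh (SE 0.13), 0.00 for Slc18a2 (SE 0.08), 0.14 for Slc6a3 (SE 0.14) and 0.05 for Maob (SE 0.07), with a smallest unadjusted p of 0.237. There limma called 0 of all tested genes (0%), and 446 had an unadjusted p below 0.05. In *P. maniculatus* they were -0.10 for Dbh (SE 0.13), 0.05 for Slc18a2 (SE 0.08), -0.07 for Slc6a3 (SE 0.14) and -0.02 for Maob (SE 0.07), where limma called 1 gene (0.00696%) and 291 had an unadjusted p below 0.05. Slc6a2, tested without the filter, differed by -0.11 in *P. maniculatus* (SE 0.05, limma adjusted p = 1). Its burrowing and control values did not overlap, with means of 0.174 and 0.267 TPM, a separation not counted over all genes.

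The trial difference of *P. polionotus* minus that of *P. maniculatus* was 0.26 for Dbh (SE 0.19), 0.22 for Slc6a3 (SE 0.2), 0.08 for Maob (SE 0.1) and -0.04 for Slc18a2 (SE 0.12), none of which passed (limma adjusted p = 0.992 each). The interaction had 0 called genes (0%) and 415 with an unadjusted p below 0.05.

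All 5 genes were highest in the same library of each species. Polionotus burrowing replicate 3 held the highest value of its species for each of the 5, as it did for 29.8% of all tested genes, and maniculatus control replicate 3 held it for each of the 5, against 29.3% of all tested genes. After scaling to a common median each was still highest for 4 of the 5 (20.4% and 25% of all tested genes). These 2 libraries had the highest scores of their species on the second principal component of the 12 libraries, 15.5 and 20.5, a component with 7.47% of the variance against 68.3% for the first, which separated the species. At the other end, polionotus control replicate 2, which scored 12.6 on that component, was lowest of its species for Dbh and Slc18a2. It was lowest for 24.5% of all tested genes. Polionotus burrowing replicate 1 was also lowest for 2 of the 5, beside 28.7% of all tested genes.

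**Figure D3:**
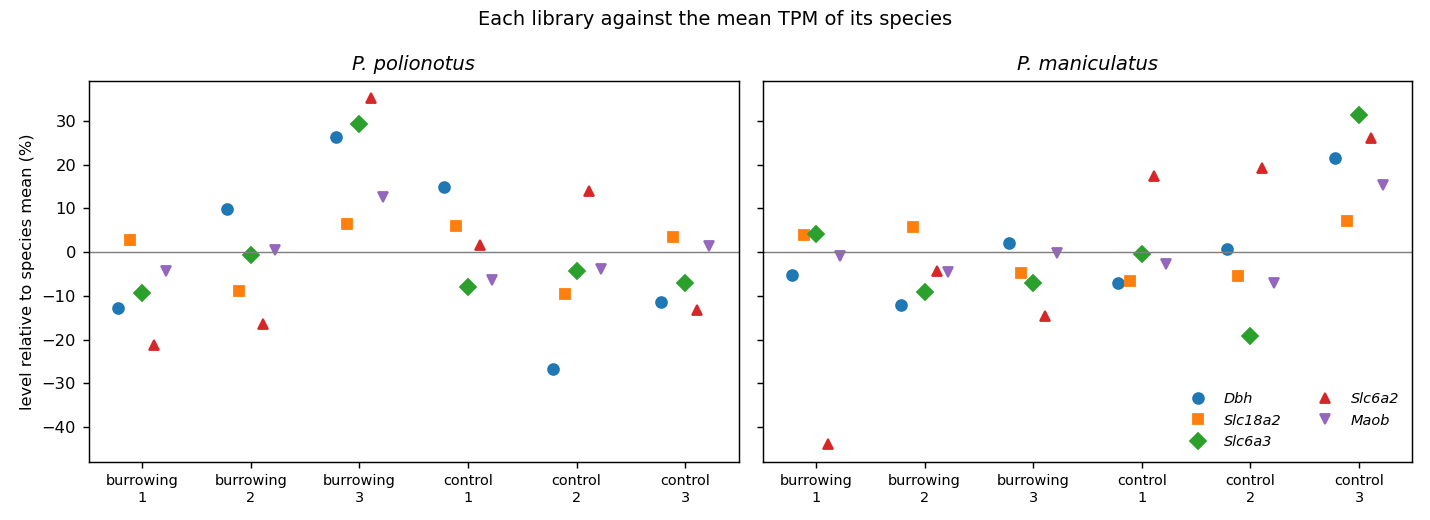
Level of each gene in each library as a percentage above or below the mean TPM of its species (vertical axis), P. polionotus left and P. maniculatus right, burrowing before control, with 1 symbol per gene. All 5 symbols lie above 0 in polionotus burrowing replicate 3 and maniculatus control replicate 3, the highest of their species for each gene.

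Markers of several cell types and regions varied with these libraries. The 19 Hox genes of hindbrain and spinal cord summed to 48.7, 51 and 58.8 TPM in burrowing and 39.8, 7.82 and 19.9 TPM in control *P. polionotus*, and to 45.7, 36.9 and 53 TPM in burrowing and 47.6, 44.5 and 56.4 TPM in control *P. maniculatus*, with Hoxc8 below 0.1 TPM everywhere. The library with the highest Hox sum of each species was the one in which all 5 catecholamine genes were highest. In *P. polionotus* the library with the lowest Hox sum was lowest for 2 of the 5, Dbh and Slc18a2. Slc6a2 in that library lay 14% above the mean of its species. The order did not hold throughout. Polionotus control replicate 3, second lowest in Hox sum, had Slc18a2 at 15.5 TPM, above the mean of its species, and maniculatus burrowing replicate 2, lowest of its species in Hox sum, had Slc18a2 at 18.4 TPM, the second highest. Some other marker sums were also highest of their species in polionotus burrowing replicate 3 and maniculatus control replicate 3. These were the sums of serotonergic markers (8.07 and 6.84 TPM), astrocyte markers (1970 and 2410 TPM) and general neuronal markers (1530 and 1440 TPM). The sum of the midbrain dopamine neuron list was highest in the first of these libraries (153 TPM) and not in the second (146 TPM). Most of that sum came from Nr4a2 and En2. They averaged 85.9 and 39.8 TPM in *P. polionotus* and 83.8 and 42.5 TPM in *P. maniculatus*, so the sum says little about the other genes of the list. Other sums went the opposite way. Adrenoceptors summed to the lowest value of each species in these 2 libraries (252 and 236 TPM). Olfactory bulb and endothelial markers were lowest of their species in the first library (42.3 and 53.7 TPM). In the second they were not (43.8 and 116 TPM). In whole-brain RNA, fewer cells of a type and less RNA per cell cannot be told apart, and the part of these marker levels in the catecholamine values was not tested. When polionotus control replicates 2 and 3 were left out, a choice made with the data seen, the species difference of Slc6a3 (0.32, limma adjusted p = 0.0801) and of Slc18a2 (-0.17, limma adjusted p = 0.0791) no longer passed, and Maob did. The 3 libraries that scored highest on the second component were also left out together, again with the data seen, and the 3 calls held. Polionotus burrowing replicate 1, kept in that fit, scored -13.2 on that component.

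Markers of the neurons that use these genes gave their own values in the species comparison. Of 7 tested midbrain dopamine neuron genes, Ntsr1, a neurotensin receptor, was higher in *P. polionotus* at 4.22 ± 0.371 against 3.03 ± 0.153 TPM in *P. maniculatus* (SD, n = 6 each; 0.37, SE 0.05, limma adjusted p = 0.000176). Chrna6, a nicotinic receptor subunit of dopamine terminals, was higher as well, at 2.65 ± 0.366 against 1.78 ± 0.404 TPM (0.40, SE 0.1, limma adjusted p = 0.0079). The tested transcription factors of those neurons did not pass, among them Nr4a2 (0.04, SE 0.05) and En1 (-0.1, SE 0.08). Over the tested genes of the list the median was 0.04, beside 0.06 over all tested genes. Pitx3, Lmx1a, Lmx1b and Foxa2 lay below the filter and were not tested. Pitx3 averaged 0.282 ± 0.0865 TPM in *P. polionotus*, against 0.151 ± 0.0713 TPM in *P. maniculatus* (SD, n = 6 each). Means in the same order were 0.101 and 0.13 TPM for Lmx1a, 0.368 and 0.331 TPM for Lmx1b, and 0.916 and 0.833 TPM for Foxa2. The ranges overlapped for each. Of the transcription factors of noradrenergic neurons, Tfap2b did not pass (-0.11, SE 0.11, limma adjusted p = 0.434), and Phox2a, below the filter and not tested, stood at 1.29 ± 0.317 TPM in *P. polionotus*, against 0.582 ± 0.173 TPM in *P. maniculatus* (SD, n = 6 each), with overlapping ranges. None of the 3 tested serotonergic markers passed, with Fev at 0.12 (SE 0.08, limma adjusted p = 0.218). Of 13 tested Hox genes, 2 were lower, Hoxd4 (-0.66, SE 0.18, limma adjusted p = 0.00987) and Hoxb4 (-0.55, SE 0.16, limma adjusted p = 0.0132). In the species comparison over both trials the olfactory bulb gene Cdhr1 (0.44), the neuronal tubulin Tubb3 (0.30), the myelin genes Mog (0.53) and Mbp (0.16), the microglial receptor Cx3cr1 (0.95) and the choroid plexus channel Clic6 (0.26) were higher. Syt1 (-0.18), P2ry12 (-0.56), the endothelial claudin Cldn5 (-0.63), the pituitary hormone precursor Pomc (-1.03) and the astrocyte genes Gja1 (-0.54), S100b (-0.35) and Aqp4 (-0.29) were lower, with limma adjusted p up to 0.0466.

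In the hybrids both alleles were counted in the same brain. All hybrids carry the same cross label, and which species was the mother is not stated there. If all came from the same direction of cross, the species of an allele and its parent of origin cannot be told apart. Of the reads of a gene assigned to either allele, the polionotus share is the percentage on the polionotus allele. Allele-assigned counts per animal were 26264699, 28994982 and 22510205 after burrowing and 11415175, 12595542 and 53906964 in controls, and over all genes 52.6% to 53.1% lay on the polionotus allele. Alleles were compared with edgeR's quasi-likelihood test with the animal as a block, in which 55.7% of 11928 genes were called, 34.2% higher and 21.5% lower on the polionotus allele. None of the 3 catecholamine genes was among them. Scaled to the total of each allele, 2932 genes were higher and 4201 lower, against 4074 and 2567.

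Slc18a2 had shares of 49.5%, 49.2% and 55.5% after burrowing and 47.8%, 51.2% and 51.6% in controls, from 404 to 2256 reads per animal. The mean share was 50.8% ± 2.69 (SD, n = 6 animals), and the allele difference was 0.05 (log2, SE 0.06, edgeR adjusted p = 0.56), beside the species difference of -0.21. Scaled to the total of each allele it turned to -0.11 (adjusted p = 0.169), with the median over all genes moving from 0.107 to -0.054. Whether the species and allele differences differ from each other was not tested. Their scales are also unlike. Species differences are in log2(TPM + 1), which compresses low values, and allele differences are log2 ratios of counts.

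Dbh, with 55 to 413 reads per animal, had shares of 41.3%, 50% and 50.9% after burrowing and 50.9%, 55.1% and 49.9% in controls. Its mean share was 49.7% ± 4.53 (SD, n = 6 animals). The allele difference was -0.03 (SE 0.11, edgeR adjusted p = 0.824). The lowest animal, burrowing replicate 1, had a 95% Wilson interval of 34.4% to 48.5%, which covers counting error only.

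Slc6a3 was nearer to balance in 5 animals and one-sided in the sixth. Shares were 52.2%, 56.2% and 85.3% after burrowing and 44.1%, 49.8% and 50.2% in controls, from 152 to 1252 reads. The 95% Wilson interval of burrowing replicate 2, 51.8% to 60.6%, lay above 50% and covers counting error only. Burrowing replicate 3 had 272 polionotus and 47 maniculatus reads, a 95% Wilson interval of 81% to 88.7%. Divided by the allele-assigned total of the animal and given as reads per 1000000, it had 12.1 on the polionotus allele, where the other animals had 5.87 to 11.6, and 2.09 on the maniculatus allele, where they had 7.24 to 11.6. The sum of both, 14.2, lay inside the range of the others (13.3 to 23.2). The allele difference over all animals was 0.40 (SE 0.38, edgeR adjusted p = 0.399), and without burrowing replicate 3 it was 0.04 (SE 0.11, edgeR adjusted p = 0.804). The mean share of the other 5 animals was 50.5% ± 4.41 (SD), beside a species difference of 0.33 in log2(TPM + 1) in the parental libraries.

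**Figure D4:**
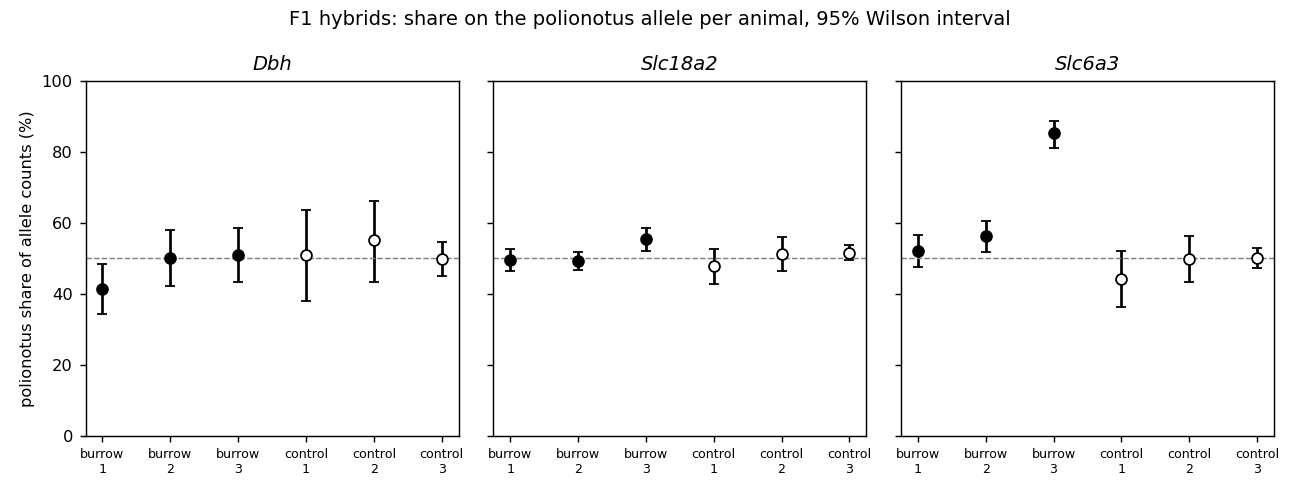
Polionotus share of allele counts in percent (vertical axis) for Dbh, Slc18a2 and Slc6a3 in each F1 animal, filled for burrowing and open for control animals, with 95% Wilson intervals of counting error. All shares lie between 41.3% and 56.2% except that of Slc6a3 in burrowing replicate 3, at 85.3%.

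Genes next to Slc6a3 were one-sided in the same animal. Neighbours were taken from the gene order of the *P. maniculatus* assembly GCF_049852395.1, 10 measured genes on each side. Only genes whose names matched that assembly could be placed, 85.1% of those counted, so unmatched genes may lie between them. Of the 20, 13 had a polionotus share in burrowing replicate 3 at least 10 percentage points above the mean of the other animals, and for 13 it was the highest of the 6 animals. Over all genes, 8.42% lay at least 10 points higher in that animal and 14.4% were highest in it. Tert, the telomerase subunit, was at 84.3% there, against 33.7% to 38.2% in the others, and Mrpl36, a mitochondrial ribosomal protein, at 90%, against 41.3% to 48.2%. Lpcat1, the next measured gene to Slc6a3 on 1 side, was at 67.8% and Clptm1l on the other side at 65.9%, both above every other animal. Interspersed genes did not follow, such as Brd9 (48.4%) and Adcy2 (48.1%). In the other 5 animals at most 1 of the 20 neighbours lay 10 points above the mean of the rest. Around Dbh and Slc18a2, none of 20 and 18 neighbours was 10 points higher in burrowing replicate 3. One-sided neighbours were not particular to Slc6a3, however. Of the 20 around Dbh, 3 were at least 10 points higher in burrowing replicate 1 and 4 in control replicate 1, beside 8.73% and 8.46% of all genes. Among them was Mrps2, at 89.1% and 86.9% in these 2 animals against 49% to 60.7% in the others. In burrowing replicate 2, 5 of the 20 were at least 10 points lower, beside 11.7% of all genes. The share of Dbh itself in these animals was 41.3%, 50.9% and 50%. What sets this stretch apart in 1 animal was not tested.

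**Figure D5:**
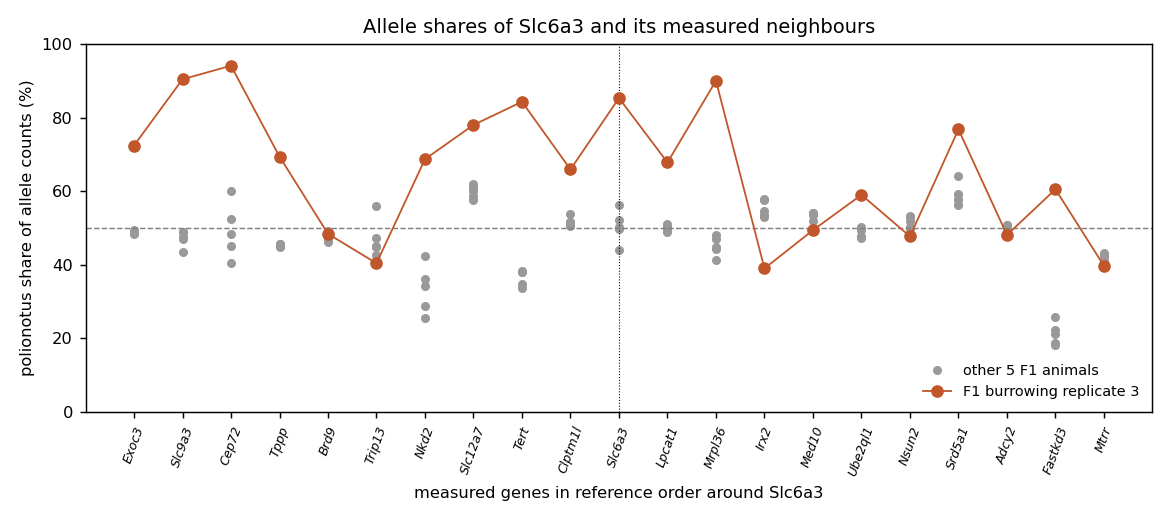
Polionotus share of allele counts in percent (vertical axis) for Slc6a3 and 10 measured neighbours on each side in reference gene order (horizontal axis), burrowing replicate 3 in orange and the other 5 F1 animals in grey. Orange points lie above all grey points for Slc6a3 (85.3%) and 13 of the 20 neighbours, and within or below them for the rest.

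Between trials, the summed counts of both alleles, again per 1000000, were 7.01, 5.17 and 7.15 for Dbh in burrowing hybrids, against 4.82, 5.48 and 7.66 in control hybrids. Slc6a3 had 17.5, 16.6 and 14.2 after burrowing and 13.3, 17.9 and 23.2 in controls, and Slc18a2 39.1, 50.1 and 39 after burrowing and 35.4, 33.8 and 41.8 in controls. The ranges overlapped for each gene. The log2 differences were 0.08 for Dbh (SE 0.23), -0.19 for Slc6a3 (SE 0.21) and 0.19 for Slc18a2 (SE 0.14), with edgeR adjusted p of 0.965 to 0.972. edgeR called 0 of all genes (0%), 90 had an unadjusted p below 0.05, and DESeq2 called 2. The allele ratio did not pass between trials either, at -0.26 for Dbh (SE 0.21), 0.07 for Slc18a2 (SE 0.14) and 1.05 for Slc6a3 (SE 0.68), each with an edgeR adjusted p of 1 where 0.226% of genes were called, 0.218% higher and 0.00838% lower. For Slc6a3 this fell to 0.35 (SE 0.18, edgeR adjusted p = 1) without burrowing replicate 3.

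Other genes of the pathway were taken from fixed lists. Of 5 tested genes for tetrahydrobiopterin, the cofactor of tyrosine hydroxylase, 2 were higher in *P. polionotus* and 0 lower, with a list median of -0.03. Gchfr, the feedback regulator that inhibits the first enzyme of cofactor synthesis, averaged 20 ± 2.42 TPM across *P. polionotus*, against 6.68 ± 2.74 TPM across *P. maniculatus* (SD, n = 6 each), a ratio of 2.99 (1.51, SE 0.18, limma adjusted p = 5.24e-05) with ranges that did not overlap, 18 to 24.7 against 3.8 to 11.8 TPM. Its polionotus share in the hybrids was 80% ± 3.33, from 76.3% to 85.8% in 6 animals (2.02, SE 0.13, edgeR adjusted p = 3.68e-05). Qdpr, which regenerates the cofactor, was higher by 0.17 (SE 0.06, limma adjusted p = 0.0366), while its shares ran from 11.2% to 85.5% between hybrids. Gch1, the first enzyme, was below the filter at 0.736 ± 0.144 TPM in *P. polionotus*, against 0.738 ± 0.104 TPM in *P. maniculatus*. Its polionotus allele was higher (0.77, SE 0.26, edgeR adjusted p = 0.0451) on a mean share of 63% ± 11.9, and that of Pts lower (-0.63, SE 0.06, edgeR adjusted p = 0.000304).

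Of 3 further enzymes and transporters tested, 1 was lower. Moxd1, a monooxygenase related to Dbh by sequence, averaged 1.39 ± 0.134 TPM across *P. polionotus*, against 3.03 ± 0.197 TPM across *P. maniculatus* (SD, n = 6 each), a ratio of 0.458 (-0.76, SE 0.06, limma adjusted p = 1.46e-06). In the hybrids its polionotus share was 25.4% ± 1.37, from 23.2% to 26.5% (-1.56, SE 0.06, edgeR adjusted p = 2.98e-06). Gchfr and Moxd1 thus differed between species and between alleles in the same direction. The low-affinity monoamine transporter Slc29a4 was at 0.04 (SE 0.06) between species, and its share was 50.6% ± 1.02. Aldh2, an aldehyde dehydrogenase, did not pass between species (-0.13, SE 0.06, limma adjusted p = 0.0736), while its polionotus allele was higher (1.16, SE 0.29, edgeR adjusted p = 0.0151) with shares from 42% to 73.8%. In all, the polionotus allele was higher for 2 and lower for 1 of 5 cofactor genes and for 2 and 1 of 4 further enzymes and transporters, the other higher one being Akr1b1, an aldose reductase (share 85.4% ± 3.1). Over all genes 55.7% were called, 34.2% higher and 21.5% lower, so these shares are near the background.

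Among 8 tested adrenoceptors, which respond to noradrenaline and adrenaline, Adra2c was higher in *P. polionotus* at 141 ± 17.3 against 108 ± 12.1 TPM (0.38, SE 0.1, limma adjusted p = 0.00658). The list median was -0.02. In the hybrids the polionotus allele of Adra2c was higher (0.27, SE 0.07, edgeR adjusted p = 0.0161), with a share of 54.8% ± 2.14. Of 7 adrenoceptors in the hybrids the polionotus allele was higher for 2, the second being Adra1d (0.75, SE 0.17, edgeR adjusted p = 0.0108), and lower for 1, Adra2a (-0.54, SE 0.04, edgeR adjusted p = 4.5e-05), again a share near that of all genes. In the trial comparison of the hybrids none of these list genes passed.

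Likeness was measured as the Pearson correlation of deviations from the 4 group means over the 12 parental libraries, among 9669 genes averaging 5 TPM or more. The genes most like Slc6a3 were Chid1 (r = 0.96), Desi1 (0.96), Parva (0.95), Gal3st4 (0.95) and Taldo1 (0.94). For Dbh they were Eef1a1 (r = 0.97), Atp2a3 (0.96), Sdhc (0.95), Cox15 (0.94) and Tp53inp1 (0.94). These are the highest of many and share their libraries, so they are a description. Dbh and Slc6a2, both used by noradrenergic neurons, had r = 0.33 and Spearman's rho = 0.37 over the 6 *P. polionotus* libraries (exact permutation p = 0.494 and 0.497) and r = 0.43 and rho = 0.37 over the 6 *P. maniculatus* libraries (exact permutation p = 0.394 and 0.497). The adjusted p over the 2 relations was 0.494, and without the 2 libraries farthest from the median of Dbh r was 0.68 in *P. polionotus* and 0.09 in *P. maniculatus*.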

How the data were processed

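Per the labels' protocols, whole brains were homogenized and libraries made with a stranded poly(A) kit. Alignment used STAR 2.4.2a, per the submitters' processing notes. The sources used here do not give the build, the annotation, the TPM quantifier, how reads were assigned to alleles or whether reads of both species align equally well. The authors deposited TPM for the 12 parental libraries, column totals 977912 to 983476, and whole-number counts per allele for the 6 hybrids. Among the TPM values, 1 row naming no gene (0.789% to 2.48% of a column) was left out. TPM keep no depth.

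Symbols were matched without regard to case. Parental values were fitted with limma 3.58.1 with a mean trend (R 4.3.3), 1 mean per group, pseudocount 1, mean of at least 1 TPM. Hybrid counts were fitted with edgeR 4.0.16 (TMM, filterByExpr; alleles with animal as block, summed totals as library sizes, mean of at least 20 counts), with the SE derived from the F statistic. DESeq2 1.42.0 was an alternative. P-values were two-sided and adjusted by Benjamini-Hochberg over all genes of a comparison. The fits were tested on simulated data with known changes. The members, lists and comparisons were chosen with earlier results of these data known. Every member is named in every comparison, and from each list the genes passing between species, at most 4, or the 1 with the smallest p. Others (Gch1, Pts, Aldh2, Akr1b1, Slc29a4, Adra1d, Adra2a, Nr4a2, En1, En2, Pitx3, Lmx1a, Lmx1b, Foxa2, Phox2a, Tfap2b and the neighbours of Slc6a3 and Dbh) were named after their values were seen. Planned pairs and likeness for Th and Maoa were not computed. A few genes of the marker and receptor lists that this rule would name are not reported here.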

Additional observations from a re-analysis of the deposited data

Results flagged for a closer look

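Of 16 sets of 6 values checked (each gene in each species, and shares and levels of the hybrids), 3 had a value far from the other 5; chance gives about 1 in 20. Slc6a3 stood at 6.18 TPM in polionotus burrowing replicate 3, against 4.33 to 4.75 TPM in the other *P. polionotus* libraries. Maob stood at 1.02 TPM in maniculatus control replicate 3, against 0.82 to 0.879 TPM in the other *P. maniculatus* libraries. The polionotus share of Slc6a3 was 85.3% in F1 burrowing replicate 3, against 44.1% to 56.2% in the other hybrids. The first 2 are the libraries in which all 5 genes were highest for their species.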

How the results depend on the processing

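Of 553 values of single catecholamine genes under alternatives, 536 stayed on their side of the threshold, 7 lost a call, 10 gained one and 0 called values changed sign. With polionotus control replicates 2 and 3 left out, chosen after seeing the data, the catecholamine genes called between species, Maob included, were 1 instead of 3 (Slc6a3 0.32, Slc18a2 -0.17), and 2728 instead of 5696 genes of all tested were called in controls. In controls 2 catecholamine genes instead of 1 were called with quantile normalization and with median scaling. The same number was called without the 3 libraries highest on the second component, a set chosen with the data seen. Leaving out 1 library gave 1 to 2 in controls and 1 to 3 after burrowing (2 with all). Of all tested genes, leaving out 1 library gave 0 to 2 for the trial in *P. polionotus* (3 without the filter), 1 to 6 in *P. maniculatus* (0 with a pseudocount of 0.1 or only the groups compared), 0 to 2 for the interaction (1 without the filter) and, per animal, 10 to 73 for the allele by trial term (27 with all, 60 with DESeq2). DESeq2 called 2 genes between trials in the hybrids. Where each allele was scaled to its own total, 2932 genes were higher and 4201 lower on the polionotus allele, against 4074 and 2567. With the replicate number as a block, the species difference had 7764 genes and the same 3 catecholamine genes called, and no call of a catecholamine gene changed. Equal numbers correlated by 0.099 to 0.254 in *P. maniculatus*, where 6 of 6 libraries matched best with their own number, and by -0.229 to 0.048 in *P. polionotus*, where 1 did. Low counts limit Dbh in the hybrids, where it fell below a mean of 200 counts, and low TPM limit Slc6a2 in the parental libraries. Maob fell below the filter when only *P. maniculatus* was fitted. Groups compared are all 4 in the species mean and the interaction, so that alternative was not run there.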
